A study of Mus musculus with 2 samples.

Results

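The family of miR-148 and miR-152 is a group of 3 microRNA genes, Mir148a, Mir148b and Mir152, which were chosen by name because 1 mature product of each shares a seed, the stretch of bases 2 to 8 with which a microRNA recognises its targets. All 3 have a row in the tables, among 1973 microRNA genes in all. The samples were small RNA libraries of kidney tissue from 2 B6NCrl mouse pups at postnatal day 0, and each library was made from both kidneys of 1 pup. Both pups carry the label of pregnancy 1. The labels name no treatment and no genetic change, and they state that sex was not collected. With 1 tissue at 1 age, both pups form 1 group of 2 replicates, so levels can be set side by side between genes, and between 1 pup and the other.

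A microRNA gene is transcribed into a hairpin, from which the enzymes Drosha and Dicer release a short duplex, and the strand loaded into an Argonaute protein pairs through its seed with messenger RNAs and lowers their translation and stability. The family is best known for repressing Dnmt1, the maintenance DNA methyltransferase, and miR-148a also for repressing the low density lipoprotein receptor in liver. In renal medicine miR-148b is known from leukocytes in IgA nephropathy, where it targets C1galt1, an enzyme that adds galactose to the sugar chains of IgA. None of these target messenger RNAs was measured in these libraries.

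The mature sequences are shown because they define the family and decide whether reads of its members can be told apart. The sequences are those of RefSeq on GRCm38.p6, written 5′ to 3′ with the seed in capitals. All 3 genes matched an entry there. The arm that ends in 3p carries the shared seed.
miR-148a-3p: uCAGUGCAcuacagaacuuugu
miR-148b-3p: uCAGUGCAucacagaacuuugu
miR-152-3p: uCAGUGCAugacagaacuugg
The seed CAGUGCA stood at bases 2 to 8 of these 3 among the 1738 mature microRNAs of that table and of no other. Counted from 1 at the 5′ end, miR-148a-3p differed from miR-148b-3p by C9U and U10C, the pair of bases that follows the seed. Against miR-152-3p, miR-148a-3p differed by C9U, U10G and U20G, and miR-152-3p, at 21 bases, is 1 base shorter. The substitutions from miR-148b-3p to miR-152-3p were C10G and U20G. The 3p arms were thus identical at 18 to 20 aligned bases.

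The opposite arms, which end in 5p, are shown because the counts do not separate them from the 3p arms.
miR-148a-5p: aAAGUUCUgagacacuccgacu
miR-148b-5p: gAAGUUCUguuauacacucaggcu
miR-152-5p: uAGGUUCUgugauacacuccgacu
On this arm miR-148a and miR-148b shared the seed AAGUUCU, which no other mature microRNA of the table had, while miR-152-5p had AGGUUCU. Aligned without gaps, 13 of 22 bases were identical between miR-148a-5p and miR-148b-5p and 19 of 24 between miR-148b-5p and miR-152-5p. Between miR-148a-5p and miR-152-5p it was 15 of 22, at a shift of 2 bases. At 22 bases miR-148a-5p is shorter than the other 5p arms, which have 24. No alignment with gaps was made, so these values do not show whether the 5p arms differ more than the 3p arms.

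A count in the tables is a read that fell on the hairpin gene, on its strand, whichever arm it came from. The hairpins are printed for that reason, with both mature arms in capitals.
Mir148a: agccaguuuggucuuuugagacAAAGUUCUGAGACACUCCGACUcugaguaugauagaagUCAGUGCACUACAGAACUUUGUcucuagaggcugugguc
Mir148b: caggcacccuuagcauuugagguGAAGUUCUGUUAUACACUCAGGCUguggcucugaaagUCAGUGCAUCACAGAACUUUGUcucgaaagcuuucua
Mir152: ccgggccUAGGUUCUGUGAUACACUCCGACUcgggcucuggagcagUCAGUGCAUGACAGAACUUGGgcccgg
The longest stretch that any of these hairpins shared with another among the 1004 hairpin sequences searched was 15 bases, between Mir148a and Mir148b, and 12 bases for Mir152. A read of a whole mature arm therefore has 1 exact match among these hairpins. How many mismatches the aligner allowed is not given in the sources used here, and the rest of the genome was not searched.

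The 3 genes lie on different chromosomes of mm10, next to related genes. Mir148a (ENSMUSG00000065505.1) lies at chr6:51269812-51269910 on the minus strand and overlaps no other gene of GENCODE release M21, so it is intergenic. Mir148b (ENSMUSG00000065560.1) lies at chr15:103285125-103285221 on the plus strand, in introns of Copz1, and overlaps no exon of the 4 transcripts that span it. Mir152 (ENSMUSG00000065515.1) lies at chr11:96850393-96850465 on the plus strand, in introns of Copz2, 0.523 kb from the start of that gene, again with no exon across it in the 3 spanning transcripts. Copz1 and Copz2 encode the zeta subunit of coatomer, the coat of vesicles that return from the Golgi apparatus to the endoplasmic reticulum.

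Upstream of each microRNA, along its own strand, stood a gene of the Nfe2 type, which encodes a basic leucine zipper transcription factor, a Cbx gene for a heterochromatin protein, and a microRNA gene of a Hox cluster. For Mir148a these were Nfe2l3 at 162.76 kb, Cbx3 at 200.45 kb and Mir196b at 960.171 kb. For Mir148b they were Nfe2 at 26.722 kb, Cbx5 at 45.309 kb and, as the nearer of a pair, Mir615 at 270.124 kb. For Mir152 they were Nfe2l1 at 20.425 kb, Cbx1 at 41.753 kb and, as the nearer of a pair, Mir10a at 533.119 kb. The order was the same at the 3 loci, as the map of neighbouring genes shows. Genes of the Hnrnpa type, for RNA-binding proteins, stood between the Nfe2-type and Cbx genes beside Mir148a (Hnrnpa2b1) and Mir148b (Hnrnpa1). These neighbours were chosen after the annotation was read, and a count of shared neighbours is a description of the loci, not a measurement of the libraries.

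**Figure D1:**
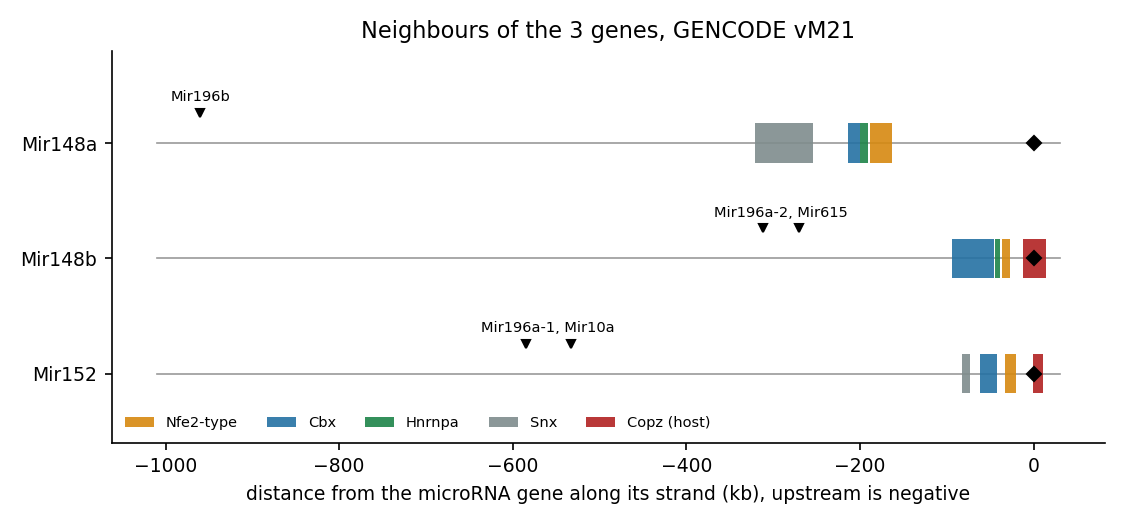
Neighbouring genes of Mir148a, Mir148b and Mir152 (diamonds at 0) by distance along the strand of each microRNA in kb, with upstream as negative values; bars span genes, and triangles mark microRNAs of the Hox clusters. In each of the 3 rows an Nfe2-type gene, a Cbx gene and a Hox cluster microRNA follow one another upstream, with that microRNA nearest for Mir148b at 270.124 kb and farthest for Mir148a at 960.171 kb.

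The libraries held 5832192 counts in pup 1 and 3846704 in pup 2 on named genes, and levels are counts in each 1000000 of those totals (CPM). Intervals are 95% Wilson intervals unless stated, and they cover counting error only, since the reads carry no stated molecular identifier and copies made by PCR are counted again. A CPM is not divided by gene length, because a read covers a whole mature arm of 21 to 24 bases rather than a part of the hairpin of 73 to 99 bases. The yield of reads per molecule can differ between microRNAs and was not measured. Every level, share and ratio between genes is therefore one of reads. In a tissue sample, fewer cells of a type and less RNA per cell cannot be told apart.

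All 3 genes were counted in both libraries, in the order Mir148a, Mir148b, Mir152. Mir148a had 3856 counts in pup 1 and 2357 in pup 2, which is 661 CPM (641 to 682) and 613 CPM (588 to 638), with a mean of 637 ± 34.2 CPM (SD, n = 2). Mir148b had 2329 and 1433 counts, or 399 CPM (383 to 416) in pup 1 and 373 CPM (354 to 392) in pup 2, with a mean of 386 ± 19.0 CPM. Mir152 had 1297 and 854 counts, or 222 CPM (211 to 235) and 222 CPM (208 to 237), with a mean of 222 ± 0.267 CPM. Pup 1 was the higher of the pups for Mir148a and Mir148b, while the values for Mir152 nearly coincided. No value of one gene overlapped those of another, and the means stood apart by more than the SDs of the genes compared. An SD from 2 values is itself imprecise, and the small SD of Mir152 is narrower than its counting interval in either library.

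**Figure D2:**
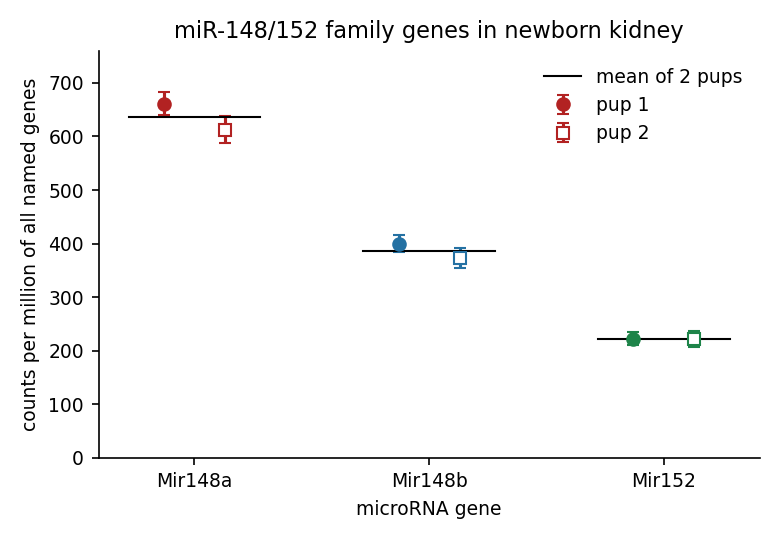
Level of Mir148a, Mir148b and Mir152 in CPM of all named genes, with filled circles for pup 1, open squares for pup 2, 95% Wilson intervals as bars and the mean of the pups as a line. The genes form 3 separate levels at 637, 386 and 222 CPM, and the pups lie closer to each other than to any value of another gene.

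The family as a whole held 0.128% of counts in pup 1 (0.125 to 0.131) and 0.121% in pup 2 (0.117 to 0.124). Mir148a supplied 51.5% of the family's counts in pup 1 (50.4 to 52.7) and 50.8% in pup 2 (49.3 to 52.2). Mir148b supplied 31.1% (30.1 to 32.2) and 30.9% (29.5 to 32.2). Mir152 supplied 17.3% (16.5 to 18.2) and 18.4% (17.3 to 19.5). The intervals of the pups overlapped for each gene, and a difference in the make-up of the family between the pups was not tested. These shares do not depend on how a library is scaled.

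Expressed as ratios with exact 95% counting intervals, Mir148a exceeded Mir148b 1.66-fold in pup 1 (1.57 to 1.74) and 1.64-fold in pup 2 (1.54 to 1.76). Mir148b exceeded Mir152 1.80-fold in pup 1 (1.68 to 1.92) and 1.68-fold in pup 2 (1.54 to 1.83). Mir148a exceeded Mir152 2.97-fold (2.79 to 3.17) and 2.76-fold (2.55 to 2.99). The intergenic member was thus the highest in reads, and of the members inside coatomer genes the one in Copz1 stood above the one in Copz2. The host transcripts themselves are not part of a small RNA count table and were not measured.

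The family stood below the most abundant microRNA genes and above most of the 696 that had at least 1 count in either pup. Mir148a ranked 90th, Mir148b 101st and Mir152 134th by mean CPM, within the 163 genes that had 100 CPM or more in both pups. The single most abundant gene, Mir10a of the Hoxb cluster, had 123 times the counts of the whole family in pup 1 and 125 times in pup 2. The ranks of each member differed little between the libraries, at 91 in both pups for Mir148a, 101 and 105 for Mir148b and 135 and 133 for Mir152.

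**Figure D3:**
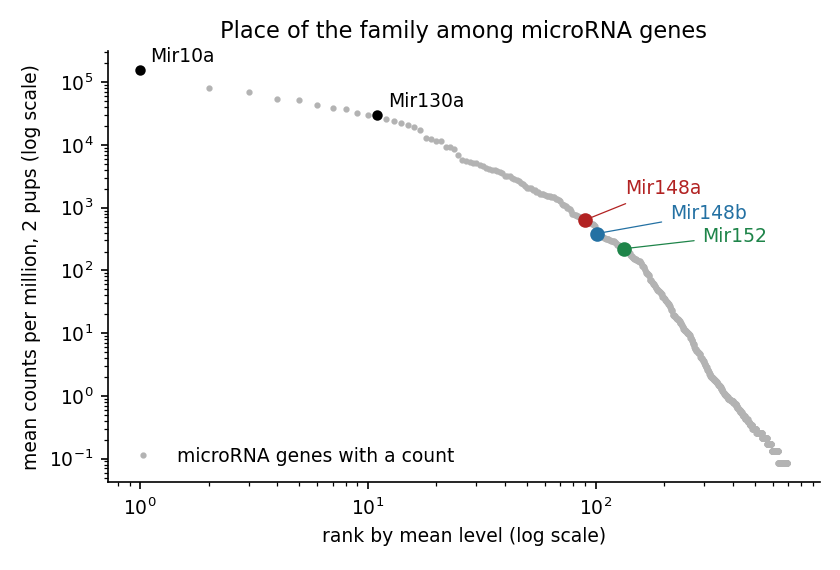
Mean level over 2 pups in CPM against rank, both on log scales, for microRNA genes with at least 1 count; the 3 family members are coloured, and Mir10a and Mir130a are marked in black for scale. The members lie at ranks 90, 101 and 134, below abundant genes such as Mir10a and Mir130a and above the steep fall towards single counts.

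The genes nearest in level were sought as the 2 next above and the 2 next below each member in mean CPM over 2 pups, which is a likeness of level only. For Mir148a they were Mir141 (657 ± 16.6 CPM), Mir221 (649 ± 24.3), Mir487b (635 ± 42.3) and Mir188 (592 ± 54.9), and none of the 4 differed from it by more than the larger SD of the pair. For Mir148b the next below, Mir204 (378 ± 28.7 CPM) and Mir30b (377 ± 36.7), lay within that spread. Those next above Mir148b, Mir1983 (442 ± 11.2) and Mir541 (519.9 ± 0.694), lay beyond it. Mir152 lay between Mir185 (223 ± 11.3) and Mir101a (218 ± 5.49), both within the spread, while Mir224 (230 ± 4.59) and Mir32 (215 ± 2.30) were farther from it than the larger SD.

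The seed letters of the family also occur, shifted by 1 base, in the family of miR-130 and miR-301, a group known for repressing growth and adhesion genes in many tissues. These relatives are shown with the same 7 letters in capitals, which there occupy bases 1 to 7.
miR-130a-3p: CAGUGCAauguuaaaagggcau
miR-130b-3p: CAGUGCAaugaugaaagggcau
miR-301a-3p: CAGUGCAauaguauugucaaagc
With that shift the seeds overlap by 6 letters but are not the same. On the mature strand alone, CAGUGCA was found in 17 of the 1738 mature sequences, or 0.978%, of which 3 had it at bases 2 to 8 and 7 at bases 1 to 7. The match describes letters and shows no shared target.

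In reads, 3 of the 4 relatives with a row stood above every member of the family. Mir130a had 29799 CPM in pup 1 and 29274 in pup 2, with a mean of 29536 ± 372 CPM, which is 46.4 times the mean of Mir148a. Mir130b had 5269 and 5096 CPM, with a mean of 5183 ± 122 CPM, 8.14 times that of Mir148a. Mir301, the gene of miR-301a, had 779 and 768 CPM, or 774 ± 7.55, which is 1.21 times that of Mir148a and beyond the SD of either gene. Mir301b, another listed relative, was lower than every family member at 48.3 ± 3.66 CPM. Of the genes found to encode the letters at base 1 or 2, the family made up 3.46% of counts in pup 1 (3.38 to 3.53) and 3.32% in pup 2 (3.23 to 3.42). Mir301b was not among the genes found in that search, so its counts are not in these shares. Only RefSeq mature sequences were searched, so this absence does not show that Mir301b lacks the letters. Mir130c, Mir6341 and Mir6389, which also encode them at base 1, had 0 counts in both pups, which allows up to 0.514 CPM in pup 1 and 0.780 in pup 2 at 3 counts. Further into the mature sequence the letters occurred in products of abundant genes such as Mir17 (19249 ± 1401 CPM, bases 12 to 18) and Mir139 (3240 ± 55.9 CPM, bases 5 to 11), where they are not the seed.

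**Figure D4:**
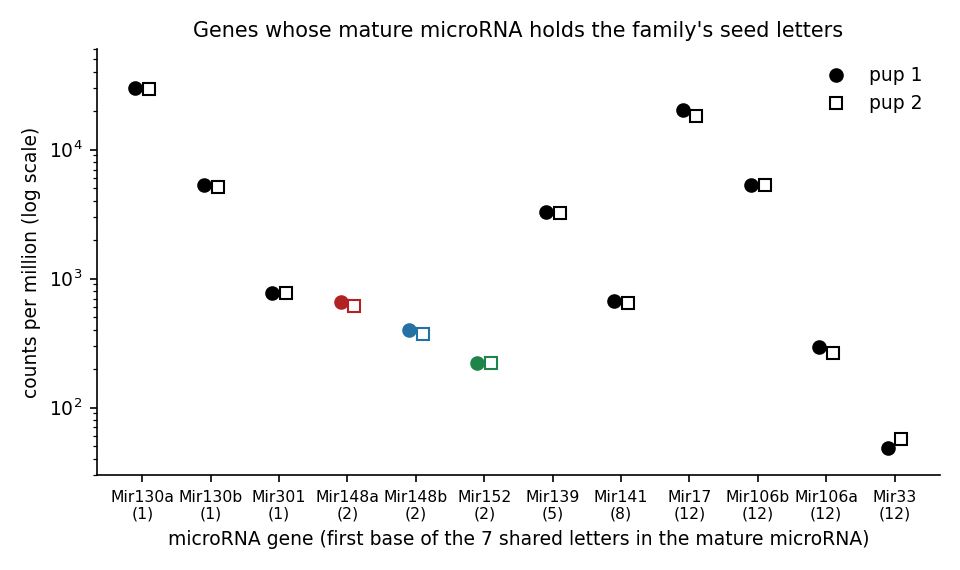
Level in CPM (log scale) in pup 1 (filled circles) and pup 2 (open squares) of the genes with counts whose mature microRNA was found to hold the letters of the family's seed, with the first base of the match in brackets; the 3 family members are coloured, and Mir301b is not in the set. The family, with the letters from base 2, lies between 222 and 661 CPM, below Mir130a, Mir130b and Mir301, which have them from base 1.

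Other microRNAs known to repress DNA methyltransferases were set beside the family. Of 9 listed genes, Mir143, known from smooth muscle and as a repressor of Dnmt3a, was the highest at 36917 ± 2966 CPM. Mir342 followed at 1547 ± 52.8 and Mir101b at 1527 ± 74.1 CPM, both above Mir148a. Mir185 and Mir101a stood at the level of Mir152. Of the miR-29 genes, known as repressors of Dnmt3a and Dnmt3b, Mir29c at 119 ± 3.48 and Mir29a at 91.5 ± 7.40 CPM were lower than Mir152. Mir29b-1 and Mir29b-2 encode the same mature 3p sequence, and reads with several matches are not in the gene counts, so their 1 to 6 counts do not measure their level. Among listed microRNAs known from cholesterol and lipoprotein control, in which miR-148a also belongs, Mir130b and Mir27b (2943 ± 187 CPM) were above Mir148a. The other 6 were listed below it, with Mir27a at 321 ± 39.4 CPM and the liver microRNA Mir122 at 50.6 ± 9.00 CPM. Among these, Mir128-1 and Mir128-2 also share a mature 3p sequence, so their levels are uncertain for the same reason.

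Whether the levels of the Hox cluster microRNAs upstream of each member followed the order of the family depended on which neighbour was read. Mir196b, upstream of Mir148a, had 22510 ± 1054 CPM. The Hoxc microRNAs Mir196a-2 and Mir615, on the same chromosome as Mir148b, had 1483 ± 44.5 and 1480 ± 143 CPM. Mir10a and Mir196a-1 of the Hoxb cluster, beside Mir152, had 154437 ± 4642 and 32.3 ± 4.08 CPM. Mir10b, in the Hoxd cluster with no member of the family listed beside it, had 68835 ± 1576 CPM. By Mir10a, the member with the most abundant Hox neighbour, Mir152, was the lowest of the family. The miR-196 genes Mir196b, Mir196a-2 and Mir196a-1 instead fell in the order of the family. Reads of the Mir196a genes can match both copies, so their levels are uncertain.

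Between the pups the family differed by little. The log2 ratio of pup 2 over pup 1, from counts scaled by edgeR's TMM library sizes, was -0.13 for Mir148a (exact 95% counting interval -0.21 to -0.06). It was -0.12 for Mir148b (-0.22 to -0.03) and -0.02 for Mir152 (-0.15 to 0.10). By the exact two-sided binomial test with Benjamini-Hochberg adjustment over the 324 genes whose mean count reached 10, Mir148a passed as lower in pup 2 with an adjusted p of 0.00232. Mir148b also passed, with an adjusted p of 0.0392 by the same exact test, and Mir152 did not, at 0.867. That is 2 of 3 members lower and 0 higher. Of all tested genes 33.6% passed in either direction, 21.0% as lower and 12.7% as higher. These shares take in genes of few counts, and a larger part of the deeper genes passed. When the count filter was raised from 10 to 100, 107 of 217 genes passed, 68 of them as lower. The calls for 2 of 3 members therefore do not set the family apart. The median log2 ratio was -0.12 over the members and -0.04 over all tested genes, whose median absolute ratio was 0.15. The ratios of all 3 members were smaller in size than that median, and their intervals overlapped. That median includes genes of few counts, whose ratios spread more, so it does not place the members among genes of like depth. A difference among the members was not tested.

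The related gene lists were read beside the same shares. Abundant genes on these lists passed at small ratios, such as Mir10a at -0.08 on the log2 scale. No share was computed for genes of that depth, so the counts of calls below do not set a list apart. Of the 4 relatives of the miR-130 and miR-301 family with a row, 2 passed as lower in pup 2 and 0 as higher, Mir130a at -0.05 and Mir130b at -0.07 on the log2 scale, with a median of -0.06. Of the 6 Hox cluster microRNAs, 4 passed as lower and 0 as higher, with a median of -0.10. Of the 7 tested microRNAs that target DNA methyltransferases, 2 passed as higher, Mir143 at 0.14 and Mir101b at 0.08, and 1 as lower, Mir342 at -0.09, with a median of 0.03. Of the 8 listed for cholesterol and lipoprotein control, 2 passed as higher, Mir27a at 0.23 and Mir27b at 0.11, and 2 as lower, Mir122 at -0.38 and Mir130b. The split of all calls moved with the scale, from 68 lower of 109 called with TMM sizes to 51 of 97 with library totals and 53 of 96 with DESeq2 size factors.

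This test compares the reads of 2 libraries, not conditions, and knows only counting error. Mir148b did not pass with library totals as the scale (adjusted p = 0.114 by the exact test), nor with DESeq2 size factors (0.0838) or without the filter on low counts (0.0842). An edgeR exact test that took the spread between the pups as its error passed neither Mir148a nor Mir148b, with an adjusted p of 1 for each, but that spread was estimated from the same difference.

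**Figure D5:**
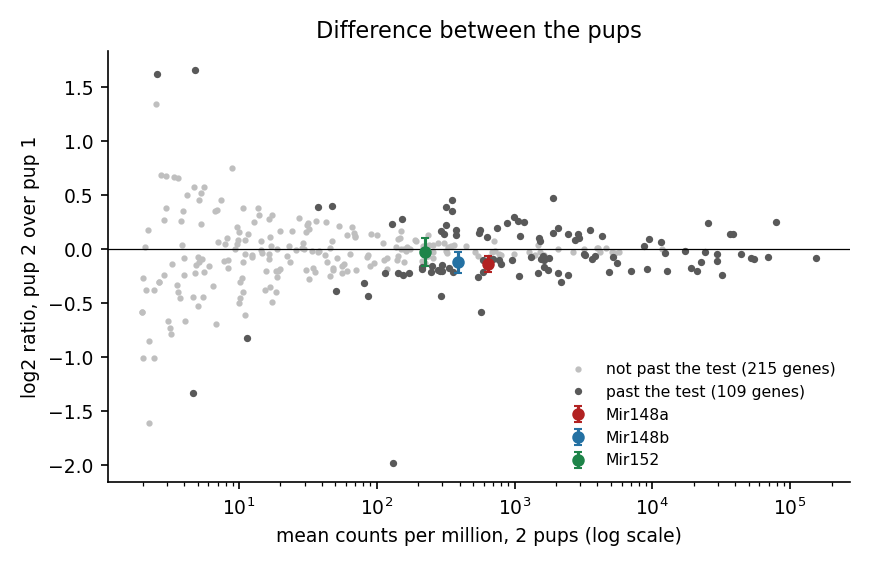
Log2 ratio of pup 2 over pup 1 against mean CPM (log scale) for the 324 tested microRNA genes, with dark points for the 109 past the exact binomial test, light points for the other 215, and the 3 family members in colour with exact 95% counting intervals. The members lie between -0.13 and -0.02, inside the spread of genes of like level.

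Markers of other tissues and of blood were read as a check of the kidney label and because the pups differed in some of them. Epithelial genes of the miR-200 group (5 of 5 counted, 3.16% ± 0.00771 of counts) and proximal tubule genes (4 of 4, 0.0848% in pup 1 and 0.0896% in pup 2) were present. The proximal tubule sum follows Mir192 alone, at 524 CPM in pup 1 and 602 in pup 2, which passed as higher. Mir194-2 passed as lower in pup 2, and Mir215 and Mir194-1 were lower in CPM there. Reads of the Mir194 genes can match both copies, so their levels are uncertain. Striated muscle markers summed to 0.000514% in pup 1 and 0.000442% in pup 2, with Mir133a-1, Mir133a-2, Mir133b and Mir1a-1 at 0. Neural markers (7 of 8 with a row) summed to 0.00257% and 0.00273%, led by Mir137 at 16.9 ± 1.10 and Mir153 at 7.80 ± 0.368 CPM, with all 3 Mir124a genes at 0. A count of 0 does not bound genes with identical copies, such as those of Mir124a, Mir133a and Mir1a. Some marker sums were lower in pup 2, as were Mir148a and Mir148b. Leukocyte markers (4 of 5 with a row) held 0.0735% in pup 1 and 0.0672% in pup 2, and the liver marker Mir122 held 0.00569% and 0.00442%. Erythroid markers (3 of 3) held 0.0241% and 0.00988%, which follows Mir451a alone, at 1213 counts in pup 1 and 206 in pup 2. The other erythroid markers were higher in pup 2, with Mir144 at 188 and 165 counts, or 32.2 and 42.9 CPM, and Mir486 at 4 and 9 counts. Other sums were higher in pup 2, such as that of the endothelial marker Mir126a (7.20% and 8.72%). Mesenchyme and smooth muscle markers held 4.03% and 4.46%, which follows Mir143 and Mir145a, the 2 that passed as higher. The others on that list, Mir214, Mir199b, Mir199a-2 and Mir199a-1, were lower in CPM in pup 2, and Mir199b passed as lower. Reads of the Mir199 genes can match several of them, so the levels of these genes are uncertain. Endocrine and pancreas markers held 0.0119% and 0.0142%, which follows Mir375 alone. The part of any of these markers in the difference of the members was not tested.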

How the data were processed

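Small RNA libraries of kidney tissue from 2 newborn mouse pups were used, 1 group of 2 replicates. The authors deposited whole-number read counts per microRNA gene, not normalised, from alignments to mm10 and annotation M4, per the notes deposited with the tables. Aligner, trimming and filters were not given in the sources used here. Column sums showed that the 3 count columns hold the sum over both strands, the gene's own strand (used here) and the opposite one. In pups 1 and 2, 58.2% and 57.4% of 10014956 and 6700198 reads were gene counts, and rows naming no gene were left out of totals and tests (multimapping 30.3% and 31.0%, unmapped 8.52% and 8.69%, no feature 2.91% and 2.92%).

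Identifiers were matched without version to GENCODE M21 (1894 of 1973). Counts were scaled to CPM. Genes whose mean count reached 10 were compared between pups by an exact binomial test (scipy 1.17.1) on TMM library sizes (edgeR 4.0.16, R 4.3.3), with Benjamini-Hochberg adjustment at 0.05 and a prior count of 0.5 for ratios. edgeR's quasi-likelihood test needs replicates on each side and could not be used. The test was checked on simulated data. Members and gene lists were chosen with earlier results of these data known. Named genes are the members, the 3 highest of each list, marker genes at 0 counts, and the 2 neighbours in level on each side; others were named after their values were seen. Alternatives were other library totals, either-strand counts, DESeq2 1.42.0 size factors, other count filters, an edgeR exact test and each pup alone.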

Additional observations from a re-analysis of the deposited data

How the results depend on the processing

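In CPM of all reads, unmapped and multimapping ones included, the mean levels were 368 for Mir148a, 223 for Mir148b and 128 for Mir152, and the family's share was 0.0720%. With Mir10a taken out of the total they were 753, 456 and 263 CPM and 0.147%. With reads of either strand, Mir152 moved to 218 CPM, beyond its small SD, and the other levels and the make-up stayed within 1 SD. The order of the 3 members held under each of these settings. In single pups Mir148a ranged from 613 to 661 CPM, Mir148b from 373 to 399, Mir152 from 222.0 to 222.4, and the share from 0.121% to 0.128%.

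Of the 324 tested genes, 109 passed between the pups, 97 with library totals and 96 with DESeq2 size factors. The count filter changed the number tested as well. Without it 95 of 696 genes passed, and with a mean count of at least 100 it was 107 of 217. The edgeR exact test called 1 gene, and 14 had an unadjusted p under 0.05. Log2 ratios of the members kept their sign in every alternative. Mir148a stayed past the threshold except in the edgeR exact test (adjusted p from 0.00157 to 1), and Mir152 passed in none.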
